A study of Mus musculus with 8 samples.

Results

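Arhgap45, Spn and Laptm5 are genes best known from leukocytes, and they were examined here in cultured mouse muscle stem cells that had lost the chromatin remodeller Chd4. The 3 genes were chosen by name out of 20976 genes in the count table, because their values were higher after Cre than after GFP, so that difference is described and not tested. The Cre group was cells infected with an adenovirus carrying Cre recombinase, which deletes exons 12 to 21 of loxP-flanked Chd4, and the GFP group was the same kind of cells infected with an adenovirus carrying GFP. Each group held 4 libraries of total RNA, from 4 mice per the series' design text. All cells came from Chd4LoxP/LoxP mice, were purified by flow cytometry from muscle, were expanded in medium with serum and bFGF, and were infected in culture, so both groups carried the floxed allele and both received a virus. In these libraries Cre was never given to cells with an unfloxed Chd4 locus, so Cre itself and the loss of Chd4 cannot be told apart. The labels state no age, sex or strain background. Values per library are listed for replicates 1 to 4 in that order.

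Chd4 is the ATPase of the NuRD complex, which slides nucleosomes and removes acetyl groups from histones, and is best known for keeping genes of other lineages silent. Arhgap45, also called Hmha1, encodes a protein with an F-BAR domain, which binds curved membrane, and a RhoGAP domain, which switches off small GTPases; in humans it is the source of a minor histocompatibility antigen of blood cells. Spn encodes CD43, also called leukosialin, a heavily glycosylated sialomucin that covers the surface of T cells, other leukocytes and blood progenitors and is tied to the actin cortex by ezrin, radixin and moesin. Laptm5 encodes a membrane protein of lysosomes in blood cells that binds ubiquitin ligases of the Nedd4 family and, in mouse lymphocytes, helps send antigen receptor subunits to the lysosome.

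The values, called normalised reads here, behave as counts that the authors scaled to a common size and rounded. They sum to 28402534 to 28876348 in Cre libraries and 27897860 to 28485789 in GFP libraries, so that 1 CPM, a count scaled by the library total, stands for 27.9 to 28.9 normalised reads. The depth before scaling, estimated from steps among the low values, was 26.27 to 30.36 M reads in Cre libraries and 23.26 to 38.02 M in GFP libraries. Chd4 averaged 4828 ± 787 normalised reads in Cre libraries and 17636 ± 1848 in GFP libraries (SD, n = 4 each), with no overlap, a log2 difference of -1.88 ± 0.14 (SE; limma, adjusted p = 0.00328), which matches the labels. Libraries with the same number deviated together from their group means (r = 0.820 to 0.908 across genes), so a model with the number as a block, called the paired model, was run beside the unpaired one. In the unpaired model 0.837% of 12910 tested genes rose and 0.248% fell in Cre at an adjusted p under 0.05, and in the paired model 22.2% rose and 21.7% fell.

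The promoters of the 3 genes are shown to describe their sequence, which was not used to choose them. The genes lie on different chromosomes, and their being higher together in Cre is how they were chosen. Each window runs from 250 bases before to 50 bases after a RefSeq transcription start (GRCm38.p6) and is written on the strand of the gene. Capitals mark short motifs found on either strand, which were AGGAAG (the ETS core), then TGTGGT (the RUNX core), then AGATAA (the GATA core), then CAGCTG (an E-box), then GGGCGG (the GC box) and then TATAAA (the TATA box). All 3 genes matched the RefSeq promoter table. Arhgap45 has 3 windows there, and the outermost, chr10:80016422-80016721 on the plus strand, is printed first.
Arhgap45: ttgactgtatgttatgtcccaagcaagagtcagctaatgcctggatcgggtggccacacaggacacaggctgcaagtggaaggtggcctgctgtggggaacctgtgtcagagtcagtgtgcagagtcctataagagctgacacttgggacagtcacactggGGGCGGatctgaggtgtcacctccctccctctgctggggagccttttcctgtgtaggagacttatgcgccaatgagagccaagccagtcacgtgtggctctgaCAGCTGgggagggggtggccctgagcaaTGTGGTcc
Arhgap45, innermost start, chr10:80019425-80019724, plus strand: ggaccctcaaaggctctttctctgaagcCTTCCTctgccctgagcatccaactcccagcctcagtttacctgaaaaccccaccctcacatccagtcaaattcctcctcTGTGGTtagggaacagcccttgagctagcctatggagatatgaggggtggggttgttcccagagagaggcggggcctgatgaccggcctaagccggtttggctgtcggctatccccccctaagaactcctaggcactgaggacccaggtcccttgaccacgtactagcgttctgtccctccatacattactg
Spn, chr7:127137774-127138073, minus strand: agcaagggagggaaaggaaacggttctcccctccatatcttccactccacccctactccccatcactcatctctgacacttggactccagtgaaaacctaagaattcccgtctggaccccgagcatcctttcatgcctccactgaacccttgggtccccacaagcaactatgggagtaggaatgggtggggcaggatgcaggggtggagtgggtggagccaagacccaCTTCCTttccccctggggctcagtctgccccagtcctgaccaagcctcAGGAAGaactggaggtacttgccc
Laptm5, chr4:130913066-130913365, plus strand: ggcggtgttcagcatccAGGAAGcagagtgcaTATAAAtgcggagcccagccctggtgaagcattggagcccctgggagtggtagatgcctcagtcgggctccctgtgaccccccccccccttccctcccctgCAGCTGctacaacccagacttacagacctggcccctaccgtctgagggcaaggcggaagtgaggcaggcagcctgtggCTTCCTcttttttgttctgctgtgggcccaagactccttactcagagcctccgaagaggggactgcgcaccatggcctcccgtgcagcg

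The ETS core, a sequence that the blood factors PU.1 and Fli1 and many other ETS proteins can bind, occurred in the windows of Spn and Laptm5 and in the innermost of the 3 Arhgap45 windows. It was found 2 times in Spn, 22 bases before and 27 bases after the start, and 2 times in Laptm5, 233 and 39 bases before the start. That motif is common, since 35.4% of the 32851 promoter windows of the same length held it. The RUNX core, which Runx proteins bind, was present in each of the 3 Arhgap45 windows and in neither of the others, against 16.8% of all windows. The first 2 of these windows overlap, the second lying at 80016665 to 80016964, and share that match. The E-box was present in Laptm5 and in the first 2 Arhgap45 windows (16.3% of all windows), and the GC box in the outermost Arhgap45 window (35.7%). The TATA box was present in Laptm5, 218 bases before the RefSeq start of its window (13.6%). The GATA core was present in none of these windows (11.2% of all windows). That RefSeq start of Laptm5 lies downstream of the gene's start in GENCODE M21, at 130913125. The TATA box lies before the GENCODE start as well, and closer to it. GENCODE M21 gives Laptm5 10 distinct transcript starts, so the distances in its window hold for the RefSeq start alone. No motif was shared by the windows of all 3 genes other than the ETS core. The windows held 4, 10 and 6 CpG dinucleotides for Arhgap45, 3 for Spn and 9 for Laptm5, where the median of all windows was 7. Relative to their C and G content the CpG ratio was 0.165, 0.340 and 0.259 for the Arhgap45 windows, 0.124 for Spn and 0.310 for Laptm5, all under the median of 0.384, with Spn the lowest of the 3 genes. A match to these letters is a description of the sequence, and binding was not measured.

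Arhgap45 (ENSMUSG00000035697) spans bases 80016653 to 80031472 of chromosome 10 on the plus strand of GRCm38, and GENCODE M21 gives it 5 transcripts, 3 of them coding, each with a start of its own. The table does not separate these transcripts. Arhgap45 stood at 194, 181, 215 and 153 normalised reads in Cre, against 9, 10, 13 and 24 in GFP. The groups did not overlap, and the lowest Cre library held 6.38 times the highest GFP library. Among all tested genes the groups lay apart upward in 4.41% and downward in 6.17%, and since the 3 genes were picked from this contrast nothing is read from that count. In bulk RNA, more cells with the transcript and more transcript per cell cannot be told apart. The Cre libraries lay close together, with a coefficient of variation of 14.0%, while the GFP libraries spread by 49.1% around a mean of 14.0 ± 6.88 (SD, n = 4).

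The highest GFP library was replicate 4, which also had the greatest original depth. Its value of 24 stood for an estimated 32 reads, with an exact Poisson interval of 16.2 to 33.5 normalised reads at 95%. Replicate 1, the lowest, rested on 8 reads, with an interval of 3.83 to 17.5, so these intervals touch, and they cover counting error only. The ratio of Cre to GFP within a number was 21.6 in replicate 1, 18.1 in replicate 2, 16.5 in replicate 3 and 6.38 in replicate 4. The counting interval of the ratio was 10.9 to 51.5 in replicate 1 and 4.39 to 9.74 in replicate 4, so the fourth pair was lower than the first beyond counting error.

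The mean of Arhgap45 was 186 ± 25.9 in Cre libraries and 14.0 ± 6.88 in GFP libraries (SD, n = 4 each), a ratio of 13.3. On the log2(value + 1) scale, which understates changes of low genes, the difference was 3.73 ± 0.31 (SE, unpaired) and the SE was 0.25 in the paired model. Both are limma SEs, which draw the variance of a gene toward that of other genes. The smaller paired SE does not mean that the pairs agreed more closely. Differences within numbers had an SD of 0.75, against 0.44 between libraries of a group. Only 4 of the 12910 tested genes, Arhgap45 included, had a log2 difference at least as large. All GFP libraries lay under 1 CPM (0.316 to 0.852 CPM) and all Cre libraries above it (5.31 to 7.57 CPM), so Arhgap45 passed the filter of 4 libraries at 1 CPM through the Cre group alone, and being in the tested set carries no information about it.

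**Figure D1:**
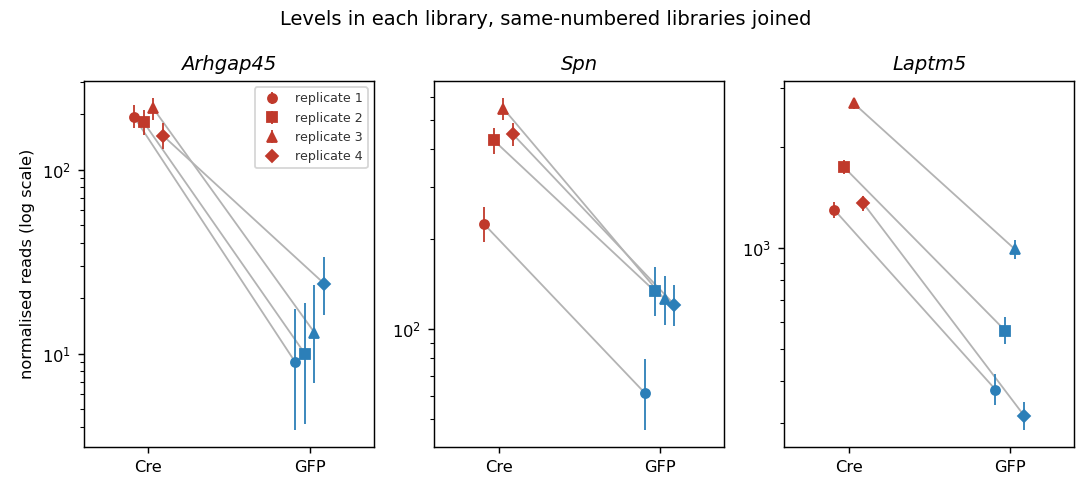
Normalised reads (log axis, with its own range in each panel) of Arhgap45, Spn and Laptm5 in the 4 Cre and 4 GFP libraries, with same-numbered libraries joined and bars showing exact 95% Poisson intervals for counting error. Every Cre library lies above every GFP library for each gene, and the gap is widest for Arhgap45, where GFP libraries hold 9 to 24 reads.

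Spn lies on chromosome 7 at 127133702 to 127137823, minus strand (ENSMUSG00000051457). The table counted a shorter span than GENCODE M21, which extends the 3′ end of the gene to 127132232. Spn stood at 225, 429, 548 and 449 normalised reads in Cre, against 61, 134, 126 and 121 in GFP. Replicate 1 was the lowest library of both groups, and the groups did not overlap, with the lowest Cre library at 1.68 times the highest GFP library. Spn averaged 413 ± 136 in Cre libraries and 110.5 ± 33.4 in GFP libraries (SD, n = 4 each), a ratio of 3.74.

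Within a number, Spn was higher in Cre by a narrow range of ratios, at 3.69, 3.20, 4.35 and 3.71 in replicates 1 to 4. The log2 difference of 1.88 carried an SE of 0.34 in the unpaired model and 0.10 in the paired model. The SD of the differences within numbers was 0.18, against an SD of 0.54 between libraries of a group, so most of the spread of Spn was shared by the Cre and GFP library of the same number. Spn was counted in every library, with 55 estimated reads in the lowest, GFP replicate 1, and it passed 1 CPM in all 8 (2.14 to 4.80 CPM in GFP).

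Laptm5 lies on chromosome 4 at 130913125 to 130936141, plus strand (ENSMUSG00000028581), with 10 transcripts in GENCODE M21. Laptm5 stood at 1300, 1744, 2708 and 1359 normalised reads in Cre, against 377, 566, 991 and 314 in GFP. Replicate 3 was the highest library of both groups. The groups did not overlap, but they came close, since the lowest Cre library held 1.31 times the highest GFP library. Laptm5 averaged 1778 ± 651 in Cre libraries and 562 ± 305 in GFP libraries (SD, n = 4 each), a ratio of 3.16.

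The ratio of Laptm5 within numbers was 3.45, 3.08, 2.73 and 4.33 in replicates 1 to 4. The counting interval was 2.53 to 2.95 in replicate 3 and 3.88 to 4.83 in replicate 4, so these pairs differed by more than counting error. As for Spn, the log2 difference of 1.74 had an SE that was smaller with the block, at 0.38 unpaired and 0.09 paired. The SD of the differences within numbers was 0.28, against 0.62 between libraries of a group. For Arhgap45 the order was the reverse, with an SD of 0.75 for differences within numbers and 0.44 between libraries of a group.

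**Figure D2:**
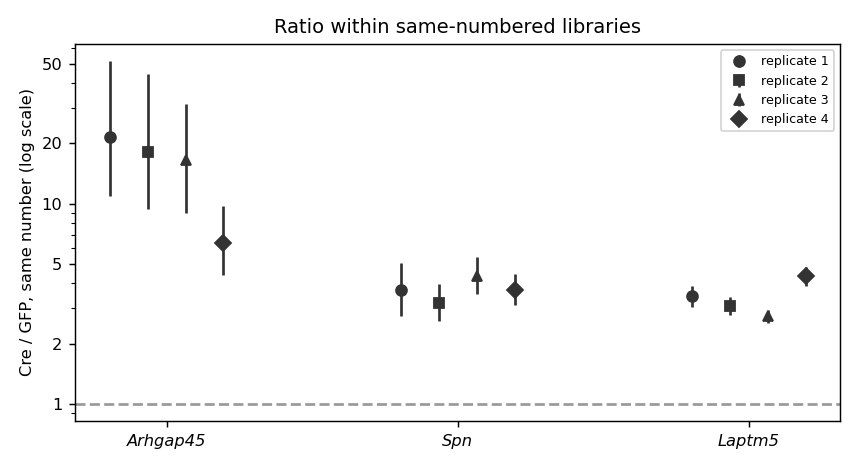
Ratio of the Cre to the GFP library of the same number (log axis) for each gene, with 95% intervals for counting error and a dashed line at a ratio of 1. The 4 ratios of Spn (3.20 to 4.35) and Laptm5 (2.73 to 4.33) lie close together, and those of Arhgap45 run from 6.38 in replicate 4 to 21.6 in replicate 1.

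Per length the 3 genes lay at different levels in GFP libraries, low for Arhgap45, lower than most genes for Spn and in the middle of the tested genes for Laptm5. As RPKM, reads scaled for annotated exon length and library total, Laptm5 averaged 16.4 ± 6.10 in Cre libraries and 5.26 ± 2.85 in GFP libraries (SD, n = 4 each), which placed its GFP mean above 64.7% of all genes in the table and above 43.1% of tested genes. On the same scale Spn averaged 3.08 ± 1.02 in Cre libraries and 0.838 ± 0.258 in GFP libraries, above 43.8% of all genes and 12.3% of tested genes in GFP. Arhgap45 averaged 1.45 ± 0.212 in Cre libraries and 0.111 ± 0.0547 in GFP libraries, above 20.3% of all genes and 0.550% of tested genes in GFP. The order Laptm5, Spn, Arhgap45 was the same in both groups, and neighbours in it did not overlap, except in Cre, where the lowest Spn library met the highest Arhgap45 library at 1.69. The exon length of Spn is that of GENCODE M21, which is longer than the span the table gives, so its level per length may be understated. In Cre libraries Arhgap45 stood above 48.8% of all genes, whereas Laptm5 stood above 84.5%.

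Other genes of blood cells were then read in the same libraries, from 9 lists of markers of leukocytes in general, macrophages, neutrophils, T and NK cells, B cells, mast cells, erythroid cells, megakaryocytes and blood progenitors, none of which holds Arhgap45, Spn or Laptm5. Of 165 listed genes, 84 had a row in the table, which holds no row at 0 in every library, and 81 had no row here. The genes without a row included Ptprc, the CD45 phosphatase carried by nearly all leukocytes, Spi1 and Gata1, factors of myeloid and erythroid cells, Cd3e of T cells, Adgre1, Lyz2 and Tyrobp of macrophages, S100a8 of neutrophils and the globins Hba-a1 and Hbb-bs. Of the 84, 28 passed the filter and 20 stayed under 10 normalised reads in every library. In the unpaired model 1 of the 28 rose in Cre and 0 fell (0.837% and 0.248% of all tested genes), and without adjustment 4 were higher and 2 lower at p under 0.05. In the paired model 13 rose and 3 fell (22.2% and 21.7% of all tested genes). The median log2 difference of the 28 was 0.27, against -0.000814 over all tested genes, and without a filter the median of the 84 was 0.58, against 0.02 over all 20976 genes. Large rises were more frequent among tested genes that were low in GFP. A log2 difference of 1 or more was held by 16.9% of 976 tested genes with a GFP mean under 50. It was held by 0.251% of 5987 tested genes with a GFP mean of 1000 or more. A gene with every GFP library under 1 CPM passed the filter only through its Cre libraries. The share among low genes was therefore in part fixed by the filter. Of the 84 listed genes 56 stayed under the filter. Their medians were not set against genes of like level, so they are not read as particular to blood genes.

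The gene that rose in the unpaired model was Ptpn6, which encodes SHP-1, a phosphatase that dampens receptor signalling in blood cells. Ptpn6 stood at 241, 180, 191 and 157 normalised reads in Cre, against 44, 66, 36 and 47 in GFP. The groups were far apart, with a mean of 192 ± 35.5 in Cre libraries and 48.3 ± 12.7 in GFP libraries (SD, n = 4 each), a log2 difference of 1.99 ± 0.23 (SE; limma, adjusted p = 0.0126, paired 2.3e-05). The call was lost without Cre replicate 2 or 3 (adjusted p up to 0.0657). Its log2 difference lay near the 1.88 of Spn, and its GFP mean lay between those of Arhgap45 and Spn.

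Among genes of leukocytes in general, 7 of 22 with a row passed the filter. Beside Ptpn6, the paired model called Arhgdib, a GTPase inhibitor of blood cells, higher by 0.70 (adjusted p = 8.08e-06), the cortactin relative Hcls1 by 0.80 (adjusted p = 0.00721) and Nckap1l, the WAVE complex subunit of blood cells, by 0.60 (adjusted p = 0.0118). These 3 did not pass unpaired (adjusted p = 0.285, 0.536 and 0.238). In all, the paired model called 4 of the 7 higher and 0 lower (22.2% and 21.7% of all tested genes). The most abundant of the list, the actin-binding Lsp1, averaged 3524 ± 566 in Cre and 3374 ± 773 in GFP and passed in neither model (adjusted p = 0.889, paired 0.228). The tetraspanin Cd53 averaged 695 ± 508 in Cre and 715.5 ± 570 in GFP and was not called either (adjusted p = 0.971, paired 0.610). Of the 3 most abundant genes of the list, Lsp1, Arhgdib and Cd53, only Arhgdib was called, and only in the paired model.

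The other 15 genes of that list with a row stayed under the filter, with summed levels of 185 to 272 normalised reads in Cre libraries and 82 to 115 in GFP libraries. Without a filter, where 0.582% of all 20976 genes rose and 0.105% fell, the unpaired model added Itgb2 (adjusted p = 0.0125), the beta subunit of leukocyte integrins, at 22, 29, 37 and 19 normalised reads in Cre, against 2, 2, 0 and 1 in GFP. Itgal, its partner in the integrin LFA-1, stood at 17, 34, 30 and 29 in Cre, against 3, 13, 6 and 19 in GFP, where the groups overlapped (adjusted p = 0.237, paired 0.00671). At such counts a fold is imprecise. Rac2, the Rac GTPase of blood cells, was at 8, 1, 1 and 0 in Cre, against 0 in each GFP library. Coro1a, Inpp5d and Arhgap30 also lay apart upward between groups, whereas some other genes of the list under the filter did not rise. Plek averaged 21.0 in Cre and 24.25 in GFP, and Fermt3 13.25 in both groups. Lcp1, Fyb and Gmfg averaged 5.25, 1.5 and 2.25 in Cre, against 5.5, 2.0 and 2.75 in GFP. Without a filter the paired model called 9 of the 22 higher and 0 lower (14.9% and 12.1% of all 20976 genes).

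**Figure D3:**
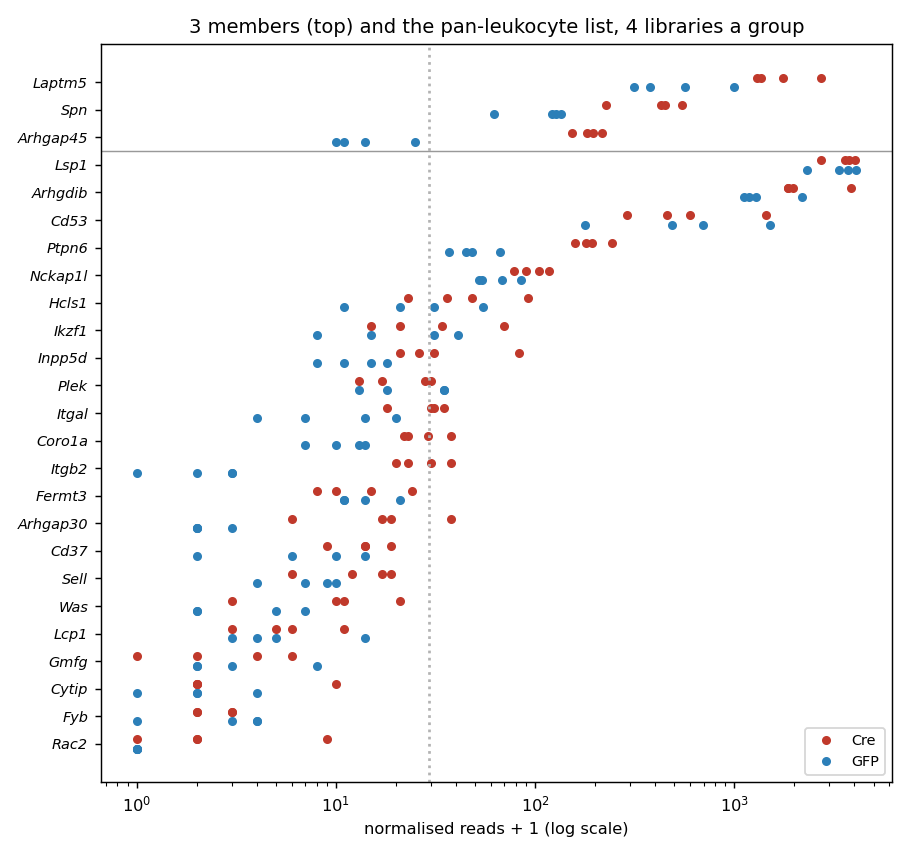
Normalised reads plus 1 (log axis) of the 3 genes above the line and of the 22 pan-leukocyte genes with a row below it, with Cre points above GFP points in each row and a dotted line at 1 CPM. For 15 of the 22 listed genes fewer than 4 libraries reach 1 CPM, and Lsp1 and Arhgdib are the most abundant of the list. In 5 of the 22, Ptpn6, Itgb2, Coro1a, Arhgap30 and Inpp5d, every Cre library lies above every GFP library. The same held for 3.99% of all 20976 genes, and genes of like level were not compared.

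Most markers of particular blood cells were low or had no row, while a few abundant genes made the sums of some lists large. The macrophage list summed to 243 to 584 normalised reads in Cre libraries and 144 to 391 in GFP libraries, with 13 of its 24 genes without a row. Cd68, a lysosomal protein of macrophages that other cells also make, accounted for much of it, at 396, 82, 114 and 220 in Cre, against 243, 28, 57 and 125 in GFP. It passed in the paired model only (log2 difference 1.00, adjusted p = 0.000369, unpaired 0.535). That model called 2 of 3 tested genes of the macrophage list higher and 0 lower (22.2% and 21.7% of all tested genes). The other was Mrc1 (limma, adjusted p = 0.389, paired 0.0179), while Cd14 passed in neither model (adjusted p = 0.858, paired 0.511). Without a filter the paired model added Csf1r and Mpeg1, for 4 of 11 higher and 0 lower (14.9% and 12.1% of all 20976 genes). The neutrophil list, with 11 of 14 genes without a row, summed to 9 to 21 reads in Cre libraries and 1 to 8 in GFP libraries. The part of other cell types in the values of Arhgap45, Spn and Laptm5 was not tested.

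For lymphocytes, the T and NK cell list summed to 238 to 372 in Cre libraries and 246 to 418 in GFP libraries, so these ranges overlapped, and the B cell list summed to 177 to 278 in Cre libraries and 105 to 220 in GFP libraries. Of the 3 T and NK cell genes tested, the kinase Lck did not pass in either model (adjusted p = 0.841, paired 0.462), Cd28 was called higher in the paired model (adjusted p = 0.0482) and Trbc2, a T cell receptor constant segment, lower (adjusted p = 0.00233). The mast cell and basophil list summed to 3512 to 3829 in Cre libraries and 3782 to 4778 in GFP libraries, with 1 of 2 tested genes called higher and 1 lower in the paired model (22.2% and 21.7% of all tested genes). Gata2, the higher, averaged 1955 ± 343 in Cre and 1737 ± 346 in GFP (limma, adjusted p = 0.652, paired 0.0264). Mcpt8, the lower, averaged 1687 ± 357 in Cre and 2518 ± 517 in GFP (adjusted p = 0.205, paired 6.7e-05). In the erythroid list, which summed to 963 to 1567 in Cre libraries and 663 to 1308 in GFP libraries, Epor, the erythropoietin receptor that myoblasts also make, averaged 617 ± 113 in Cre and 353 ± 57.0 in GFP (log2 difference 0.80, adjusted p = 0.0816, paired 2.2e-05). The megakaryocyte list, at 153 to 207 in Cre libraries and 142 to 184 in GFP libraries, had 0 calls in either model among 3 tested genes, with 0 also at an unadjusted p under 0.05. The blood progenitor list, at 8418 to 11903 in Cre libraries and 7843 to 11445 in GFP libraries, was dominated by Runx1, which binds the RUNX core, at 9142 ± 1470 in Cre and 8131 ± 1207 in GFP (log2 difference 0.17, adjusted p = 0.628, paired 0.0245). Runx1 was thus abundant in both groups. Of 6 tested genes of that list 3 were called higher and 1 lower in the paired model (22.2% and 21.7% of all tested genes), and 0 unpaired. Beside Runx1 the higher were Lmo2 and Cebpa (log2 differences 0.77 and 0.50). The lower was Cd34 (log2 difference -1.23, limma adjusted p = 0.123, paired 2.4e-05).

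Relatives and partners of the 3 genes were read next. Of 42 tested members of 6 family and partner lists 0 passed unpaired in either direction, and without adjustment 2 were higher and 2 lower at p under 0.05. With the block 13 rose and 6 fell (22.2% and 21.7% of all tested genes). Among relatives of Arhgap45, Arhgap29 averaged 5104 ± 747 normalised reads in Cre and 5576 ± 540 in GFP and passed in neither model (adjusted p = 0.643, paired 0.0604). Gmip, the other close relative, was higher by 0.43 in the paired model (adjusted p = 0.000398, unpaired 0.351). Per length Arhgap29 averaged 20.2 in Cre and 22.4 in GFP, and Gmip 3.84 in Cre and 2.90 in GFP RPKM. Arhgap45 was therefore the least abundant of the 3 relatives in both groups, at 1.45 in Cre and 0.111 in GFP.

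Low-level RhoGAP genes of leukocytes stood under the filter. Arhgap30 was at 5, 16, 18 and 37 normalised reads in Cre, against 1, 1, 1 and 2 in GFP. Arhgap4 was at 25, 19, 47 and 38 in Cre, against 6, 13, 12 and 14 in GFP. Both groups were apart for each gene, and without a filter neither passed unpaired (adjusted p = 0.0595 and 0.154) and both passed in the paired model (adjusted p = 0.000953 and 0.00641), a fit in which 14.9% of 20976 genes rose and 12.1% fell. Groups lay apart upward for 3.99% of those genes. Arhgap27, a tested gene of the same list, passed in neither model (log2 difference 0.0013, adjusted p = 0.999, paired 0.995). The small GTPases that such proteins act on differed less: Rac1 averaged 5856 ± 215 in Cre and 5887 ± 256 in GFP (log2 difference -0.01, adjusted p = 0.973, paired 0.897) and Rhoa 5051 ± 255 in Cre and 5239 ± 195 in GFP (log2 difference -0.05, adjusted p = 0.735, paired 0.330). Of 8 tested genes of these GTPases, Rac3 alone was called, higher by 0.57 in the paired model (adjusted p = 0.00557, unpaired 0.346). That model called 22.2% of all tested genes higher and 21.7% lower.

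The relatives of Laptm5 outside blood were more abundant and differed less. Laptm4a averaged 19292 ± 2461 normalised reads in Cre and 15857 ± 2785 in GFP, and Laptm4b 1946 ± 576 in Cre and 1677 ± 495 in GFP. As RPKM, Laptm4a averaged 380 in Cre and 317 in GFP, and Laptm4b 35.1 in Cre and 30.6 in GFP, compared with 16.4 in Cre and 5.26 in GFP for Laptm5. Laptm4a had a log2 difference of 0.29 and Laptm4b of 0.21, both called in the paired model only (adjusted p = 0.000555 and 0.00683, unpaired 0.359 and 0.718). The lysosomal membrane proteins Lamp1 and Lamp2 had log2 differences of 0.29 and 0.27, likewise called in the paired model only (adjusted p = 0.000409 and 0.000674). Cd63 was not called in either (log2 difference 0.05, adjusted p = 0.917, paired 0.426). These differences were smaller than the 1.74 of Laptm5.

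Of the ligases that bind Laptm5, Nedd4 was the most abundant, at 75110 ± 4624 normalised reads in Cre and 72634 ± 5595 in GFP, and passed in neither model (adjusted p = 0.857, paired 0.461). Itch, Wwp1, Wwp2 and Nedd4l were not called either. Smurf2 fell by 0.24 in the paired model (adjusted p = 0.00278, unpaired 0.139) and Smurf1 rose by 0.16 (adjusted p = 0.0180, unpaired 0.778). Tnfaip3, the A20 ubiquitin editor that Laptm5 acts on in mouse macrophages, averaged 456 ± 150 in Cre and 494 ± 170 in GFP (adjusted p = 0.913, paired 0.256).

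Among other sialomucins, which like CD43 carry many O-linked sugars, 0 of 4 tested genes passed unpaired in limma (without adjustment 1 was higher and 1 lower at p under 0.05), and in the paired model Cd164, Podxl and Podxl2 were called higher and Cd34 lower. That model called 22.2% of all tested genes higher and 21.7% lower. Cd34 stood at 282, 462, 309 and 255 normalised reads in Cre, against 582, 1244, 945 and 463 in GFP, a log2 difference of -1.23 ± 0.33 (SE; limma, adjusted p = 0.123, paired 2.4e-05). It was lower in each of the 4 pairs, and the groups lay side by side, with the highest Cre library at 462 and the lowest GFP library at 463. The ubiquitous sialomucin Cd164 had a log2 difference of 0.32 (adjusted p = 0.275, paired 0.000134), Podxl, which encodes podocalyxin, one of 0.23 (adjusted p = 0.882, paired 0.0197) and its relative Podxl2 one of 0.37 (adjusted p = 0.389, paired 0.0466). The linkers that tie CD43 to actin were high in both groups, Msn at 28138 ± 2346 in Cre and 28316 ± 1636 in GFP (log2 difference -0.01, adjusted p = 0.972, paired 0.864), while Ezr and Rdx fell by 0.17 and 0.14 in the paired model (adjusted p = 0.00838 and 0.0239, unpaired 0.664 and 0.625). Gcnt1, whose enzyme branches the O-glycans of CD43 on activated T cells, averaged 181 ± 59.1 in Cre and 184 ± 59.1 in GFP (adjusted p = 0.983, paired 0.867).

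The position of the 3 genes was read next. Within 200 kb, 53 genes had a row and 39 were tested, of which 1 rose and 0 fell in the unpaired model (0.837% and 0.248% of all tested genes), and 10 rose and 8 fell in the paired model (22.2% and 21.7% of all tested genes). Their median log2 difference was 0.01, against -0.000814 over all tested genes, so counts and median lay near those of the whole table. Abca7, a lipid transporter that ends 1080 bases upstream of Arhgap45 on the same strand, averaged 1359 ± 123 in Cre and 1193 ± 163 in GFP (log2 difference 0.19, adjusted p = 0.440, paired 0.0318). Polr2e, an RNA polymerase subunit 4476 bases beyond its other end, averaged 2082 ± 130 in Cre and 2179 ± 122 in GFP (log2 difference -0.07, adjusted p = 0.717, paired 0.296). The gene called in the unpaired model was Cbarp, a regulator of calcium channels 98978 bases from Arhgap45. Cbarp stood at 1791, 1049, 1089 and 1323 normalised reads in Cre, against 615, 379, 368 and 344 in GFP, a log2 difference of 1.63 ± 0.23 (SE; limma, adjusted p = 0.0240, paired 1.03e-06). Its call was lost when any single library other than GFP replicate 1 was left out (adjusted p up to 0.0903).

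The nearest tested neighbours of Spn, 39715 and 53836 bases away, were AI467606 at a log2 difference of 0.24 (adjusted p = 0.775, paired 0.0153) and Cd2bp2, which binds the CD2 tail and splicing factors, at -0.03 (adjusted p = 0.865, paired 0.580). Itgal, the LFA-1 subunit gene, lies 158436 bases from Spn. Of 4 genes within 200 kb of Laptm5, the proteoglycan gene Sdc3 averaged 20523 ± 4452 in Cre and 19554 ± 3597 in GFP (log2 difference 0.06, adjusted p = 0.917, paired 0.365). Matn1, a cartilage matrix gene 8243 bases beyond Laptm5 that was picked after its values were seen, stood at 3, 13, 23 and 15 normalised reads in Cre, against 0, 1, 1 and 1 in GFP. It stayed under the filter (adjusted p without a filter 0.0743, paired 0.000848).

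**Figure D4:**
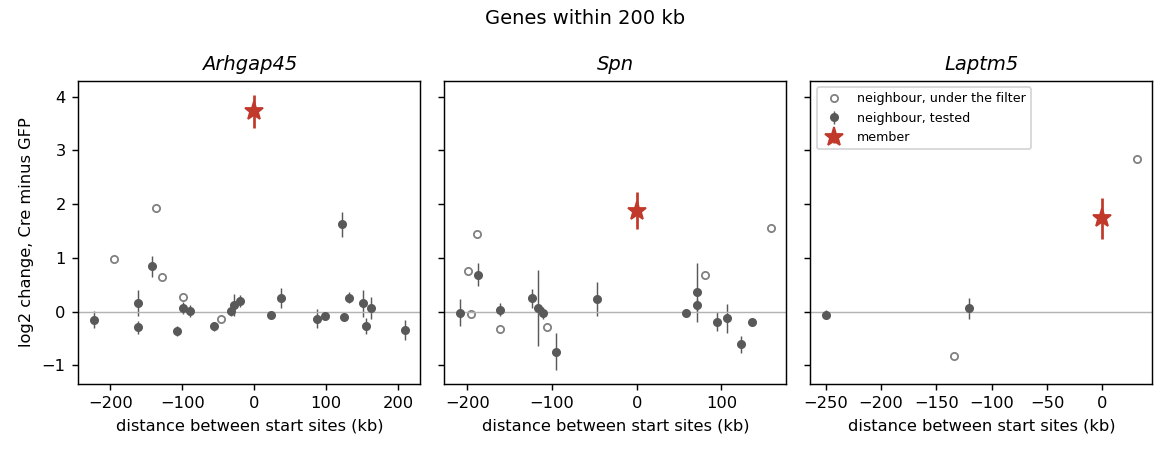
Log2 difference (Cre minus GFP) of each gene within 200 kb of a member, against the distance between start sites in kb, with the 3 genes as stars at 0, SE bars from the unpaired model for tested genes and open points for genes under the filter. Tested neighbours have a median near 0 (0.01), with Plppr3 (0.84) and Kif22 (-0.74) among those further off. Cbarp (1.63) beside Arhgap45 was the only one called in the unpaired model. In the paired model 10 were called higher and 8 lower (22.2% and 21.7% of all tested genes).

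Genes whose values across the 8 libraries were most like each member were ranked by Pearson's r of log2(value + 1) over the 12910 tested genes, as a description that contains the difference between groups. For Arhgap45 these were Rragb (r = 0.982), Eif1b (0.976), Col1a1 (0.976), Tubb4a (0.974) and Cdc16 (0.971). Col1a1, a fibrillar collagen gene, averaged 249.5 in Cre and 12.5 in GFP, a log2 difference of 4.19. Tubb4a, a tubulin gene of neurons, averaged 85.3 in Cre and 5.0 in GFP, a log2 difference of 3.88. Both were picked for likeness to Arhgap45, itself chosen for being higher in Cre, so their differences are described and no test is read. Their GFP means lay under 1 CPM, like that of Arhgap45. For Spn the most alike were Map4k3 (0.995), Gsdmd (0.993), Dennd3 (0.993), Phf19 (0.990) and Celf5 (0.984). For Laptm5 the most alike were Chst1 (0.985), Il27ra (0.985), Ankrd40 (0.976), Ier5 (0.973) and Baiap2l2 (0.966). None of the 3 genes was among the nearest of another, and the pairs among them had r = 0.903 for Arhgap45 with Spn, 0.886 for Spn with Laptm5 and 0.819 for Arhgap45 with Laptm5. After the group means were removed r was 0.289 for Arhgap45 with Spn, 0.531 for Spn with Laptm5 and -0.13 for Arhgap45 with Laptm5. On those deviations the genes most alike were Zfp971 (0.937), Mphosph10 (0.932), Dubr (0.929), Slc30a5 (0.909) and Mfn1 (0.906) for Arhgap45. They were Map3k14 (0.994), Wisp1 (0.993), Cog5 (0.991), Cdkal1 (0.988) and Cep63 (0.988) for Spn, and Zfp646 (0.990), Ret (0.985), Fam160a1 (0.983), Gfer (0.972) and Txndc5 (0.972) for Laptm5. The libraries share their group and number in these values.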

How the data were processed

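RNA-seq of 8 libraries, 4 Cre and 4 GFP, was read from a single table. The kit was stranded, per the labels' protocols. The submitters' processing notes list STAR (2.5.3a), featureCounts (1.5.3), Subread and DESeq, and the builds mm10 and GRCm38; settings, and use of strand in counting, are unknown. The unit of the deposited values is recorded as score: they are whole numbers with near-equal totals and regular gaps or doublings among low values, as arise when counts are scaled and rounded. Each library's multiplier was estimated from those gaps up to a value of 300, which gave the original reads behind a value. PCR reads are not independent molecules, so the exact Poisson and ratio intervals cover counting error only.

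Genes with at least 4 libraries at 1 CPM (12910 of 20976) were tested with limma 3.58.1 (R 4.3.3, intensity trend) on log2(value + 1), two-sided, with Benjamini-Hochberg adjustment over all of them. Replicate numbers come from the sample titles, which do not say that they mark a mouse; same-numbered libraries correlated at 0.820 to 0.908 in their deviations and other pairs of libraries at -0.64 to 0.477, so the paired model (number as block) is given too. Whether libraries come from separate animals rests on the design text. The code for tests and multipliers was checked on simulated data.

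The members and lists were chosen with earlier results of these data known. The named genes are the members, Chd4, list genes called unpaired or most abundant, relatives and partners, nearest and called neighbours, and the 5 most alike genes; other names (low leukocyte genes and those called in the paired model) were added after values were seen. Exon lengths came from GENCODE M21, which held 20941 of the gene identifiers (99.8%), and promoters from RefSeq GRCm38.p6. None of the 3 genes overlaps another gene in GENCODE M21. Alternatives were the block, pseudocounts of 0.1 and 5, other filters, rescaling, voom weights and leaving out each library; the block without a filter was added after the data were seen. Python 3.11.15 was used for tables and figures.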

Additional observations from a re-analysis of the deposited data

Results flagged for a closer look

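Of the named genes, 15 were checked in each group for a library far from the other 3 (30 groups of 4, of which chance flags about 1 in 20). In Cbarp the GFP library of replicate 1 stood apart, at 615 normalised reads, against 344 to 379 in the other GFP libraries. The other 3 cases were steps of a few reads: the Cre library of replicate 1 held 8 reads of Rac2 and the other Cre libraries 0 or 1, the GFP library of replicate 4 held 2 reads of Arhgap30 and the others 1, and the GFP library of replicate 1 held 0 reads of Matn1 and the others 1. No library of Arhgap45, Spn or Laptm5 stood apart by this measure.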

How the results depend on the processing

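The log2 differences of Arhgap45, Spn and Laptm5 kept their direction in all 17 alternatives, at 3.38 to 4.005, 1.62 to 2.15 and 1.51 to 2.06, and moved by less than the SD between libraries of a group. With the replicate block, 2861 genes were called higher and 2804 lower, against 108 and 32 without it, and in the 9 blood lists 13 higher and 3 lower, against 1 and 0. Leaving out a single library gave 10 to 51 genes higher and 1 to 7 lower, and in the blood lists 0 to 1 higher and 0 lower. Without a filter 2 blood list genes were called higher, Itgb2 being added. With the replicate block and no filter together, an alternative chosen after seeing the data, 3123 genes were called higher and 2538 lower, and 24 and 4 in the blood lists. Chd4 was called in all 17 alternatives (adjusted p up to 0.0274). Ly6a lost its call without Cre replicate 1, 2 or 3 or GFP replicate 3 (adjusted p up to 0.0727). Depth limits Arhgap45 in GFP and the low leukocyte genes, where values of a few reads carry wide counting error. The median log2 difference of all tested genes was -0.02 with equal library totals and 0.0011 with equal upper quartiles.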

Other observations

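Markers of other cells that a muscle culture can hold were read beside the blood lists. The myogenic genes were abundant in every library, with Pax7, the satellite cell factor, at 5432 ± 870 normalised reads in Cre and 5966.5 ± 651 in GFP, and Myod1 at 41055 ± 7870 in Cre libraries and 35525 ± 4258 in GFP libraries (SD over 4 libraries each), and 0 of 9 tested genes passed unpaired (limma, with 0 also at an unadjusted p under 0.05), while 4 rose and 3 fell in the paired model (22.2% and 21.7% of all tested genes). The endothelial list summed to 522 to 921 reads in Cre libraries and 363 to 471 in GFP libraries. Within it the angiopoietin receptor gene Tek averaged 209 ± 87.1 in Cre and 77.5 ± 34.7 in GFP (log2 difference 1.46; limma, adjusted p = 0.175, paired 3.3e-05), and Egfl7, an endothelial matrix protein gene, stood at 140, 157, 120 and 142 in Cre, against 83, 110, 100 and 107 in GFP (log2 difference 0.48; adjusted p = 0.193, paired 0.00930). Pecam1 and Vwf passed in neither model, so 2 of 4 tested genes rose in the paired model and 0 unpaired (2 at an unadjusted p under 0.05). Of all tested genes 22.2% rose in the paired model and 0.837% unpaired. Kdr, a VEGF receptor gene under the filter, averaged 26.5 in Cre and 6.5 in GFP. Of 3 tested genes of the fibroblast list, Ly6a rose in both models (log2 difference 2.35; limma, adjusted p = 0.0164, paired 1.83e-06) and Smoc2 in the paired model only (log2 difference 0.38; adjusted p = 0.830, paired 0.00349), whereas Pdgfra averaged 122 ± 19.8 in Cre and 119 ± 21.2 in GFP (adjusted p = 0.945, paired 0.825).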
